A study of Mus musculus with 22 samples.

Results

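The genes described here are 38 immediate early and other activity-induced genes of neurons, chosen by name from the 37786 genes in the deposited count table, and all 38 were found there. They were measured by RNA-seq in bulk tissue of the mouse anterior cingulate cortex (ACC). The study asked what repeated activation of the pathway from the basolateral amygdala (BLA) to the ACC does to gene expression in the ACC: 10 mice (stim) received 9 optogenetic stimulations with blue light, and 12 mice (ctrl) received no light. All mice were male, wildtype C57BL/6J animals, and both groups carried a virus in the BLA and an optic fiber over the ACC. The virus expressed the light-gated channel ChR2 fused to EYFP from the CaMKIIa promoter, which is active mainly in excitatory neurons, so that light in the ACC acted on the terminals of BLA neurons and not on ChR2 in ACC cells. The ACC of both sides was taken fresh 2 days after the final stimulation, and ages are not given in the labels.

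Activity-induced genes are the transcriptional answer of a neuron to calcium entry. Kinases such as ERK, CaMKIV and PKA phosphorylate factors already bound at the promoter, among them CREB at cAMP response elements and SRF with its partners at serum response elements, and the first genes are transcribed within minutes and without new protein synthesis. Many of them encode transcription factors (the AP-1, Egr, Nr4a and Npas4 families), others encode phosphatases and kinases that shut the signal down, and a further set acts directly at synapses. Most of these messages are short-lived.

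Promoters of 6 members are shown because these genes carry the results below. Fos is the reference for the variation between mice, and Nr4a1 and Junb had the highest Pearson r with it over all mice. Btg2 and Plk2 hold the full cAMP response element, and Rgs2 had the lowest p of all members in the comparison of stim with ctrl. The sequences are from RefSeq on GRCm38.p6 and run 5′ to 3′ on the strand of the gene, from 250 bases before the RefSeq start site to the base before it; for Rgs2 the last 12 bases, which an annotated exon covers, were left off. Capitals mark every TGACG or CGTCA, the half-site of the cAMP response element read on either strand. The windows lie at chr12:85473640-85473889 (+) for Fos, chr15:101266596-101266845 (+) for Nr4a1, chr8:84978749-84978998 (-) for Junb, chr1:134079156-134079405 (-) for Btg2, chr13:110394794-110395043 (+) for Plk2 and chr1:144004162-144004399 (-) for Rgs2.
Fos: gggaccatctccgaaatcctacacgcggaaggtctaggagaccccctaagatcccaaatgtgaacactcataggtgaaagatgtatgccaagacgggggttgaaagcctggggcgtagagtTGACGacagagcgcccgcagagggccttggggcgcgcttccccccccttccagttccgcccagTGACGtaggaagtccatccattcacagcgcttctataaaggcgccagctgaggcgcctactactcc
Nr4a1: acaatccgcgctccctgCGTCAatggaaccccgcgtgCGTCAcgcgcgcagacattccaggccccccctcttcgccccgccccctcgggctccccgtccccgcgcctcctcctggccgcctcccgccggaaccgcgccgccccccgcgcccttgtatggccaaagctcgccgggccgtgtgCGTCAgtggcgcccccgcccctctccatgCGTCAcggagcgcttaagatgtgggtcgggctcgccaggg
Junb: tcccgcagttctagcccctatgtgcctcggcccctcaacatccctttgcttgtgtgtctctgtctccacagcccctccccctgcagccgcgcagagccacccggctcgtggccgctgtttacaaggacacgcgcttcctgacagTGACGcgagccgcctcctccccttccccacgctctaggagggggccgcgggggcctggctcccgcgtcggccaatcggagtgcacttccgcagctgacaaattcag
Btg2: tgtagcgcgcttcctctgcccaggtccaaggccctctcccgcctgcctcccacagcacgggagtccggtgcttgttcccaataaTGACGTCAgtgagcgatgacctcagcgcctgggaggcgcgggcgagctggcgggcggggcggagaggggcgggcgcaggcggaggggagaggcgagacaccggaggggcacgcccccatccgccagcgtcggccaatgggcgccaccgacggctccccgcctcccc
Plk2: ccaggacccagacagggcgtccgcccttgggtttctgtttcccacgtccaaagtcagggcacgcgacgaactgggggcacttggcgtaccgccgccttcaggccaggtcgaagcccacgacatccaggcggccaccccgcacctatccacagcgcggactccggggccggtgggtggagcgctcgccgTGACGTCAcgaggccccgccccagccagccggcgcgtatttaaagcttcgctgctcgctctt
Rgs2: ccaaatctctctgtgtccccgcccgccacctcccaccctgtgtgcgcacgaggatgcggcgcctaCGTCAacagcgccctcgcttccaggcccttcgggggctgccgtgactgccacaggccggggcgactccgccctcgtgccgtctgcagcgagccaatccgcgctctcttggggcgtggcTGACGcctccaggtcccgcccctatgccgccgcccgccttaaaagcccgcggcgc
The half-site was present in 18 of the 28 members that the promoter table holds, against 19.8% of all 27025 genes in that table, where a gene counted if any of its start sites had a match. Nr4a1 held 4 half-sites in 250 bases, the most among those shown, and Fos held 2. The palindrome TGACGTCA, in which both half-sites overlap, was present in 3 of the 28 (Btg2, Dusp1 and Plk2) and in 1.77% of all genes. The CArG box, the core of the serum response element, was found in 2 of the 28 (Dusp5 and Egr2) against 1.62% of all genes. Only the 250 bases before each start site were scanned, so elements farther upstream are not counted for any gene, Fos included. A match in these letters is a description of the sequence and not a measured binding site. Egr1, Egr3, Arc, Ier2, Klf10, Crem, Dusp4, Trib1, Sik1 and Nptx2 had no entry in the table.

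Total counts per mouse ranged from 24563116 to 36542883 in ctrl and from 23090483 to 43668462 in stim. Every member passed the minimum of 10 counts in at least 10 mice that left 17524 genes to test, and the lowest count of any member in any mouse was 46, for Npas4. The libraries carry numbers from 1 to 23, and those numbered 1 to 11 (6 ctrl, 4 stim) stood apart from those numbered 12 to 23 (6 ctrl, 6 stim). The median share of mitochondrial counts was 2.21% in the first run of numbers and 1.12% in the second, and the median summed level of 6 excitatory neuron markers was 3387 and 6765 CPM, the count of a gene scaled to a common library size by TMM. That sum is carried by Slc17a7 and Camk2a: 4 of the 6 markers were higher in the second run at an adjusted p under 0.05 in edgeR, while Nrgn was lower (log2 difference -0.54, adjusted p = 2.92e-05) and Neurod6 was at -0.28 without passing. The median summed level of 7 inhibitory neuron markers was 970 CPM in the first run and 784 in the second, with 2 markers higher and 2 lower at that threshold. The run is a property of the library numbers and its origin is not labelled, so it was kept as a term in the fits reported here, except where a fit without it is named. Markers were checked against the tissue label. Every listed marker of excitatory neurons, inhibitory neurons, astrocytes, oligodendrocytes and microglia reached the count minimum, and the 5 striatal projection neuron markers summed to only 61.3 to 108 CPM. In bulk tissue, fewer cells of a type and less RNA per cell cannot be told apart.

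No member differed between stim and ctrl after adjustment over all genes. In edgeR's quasi-likelihood test with the run as a term, 2 of the 38 members, Rgs2 and Nptx2, were higher in stim at an unadjusted p under 0.05 and none was lower, where 11.5% of all genes passed that threshold and 6.05% passed it with a higher level in stim. At a Benjamini-Hochberg adjusted p under 0.05 the count was 0 members and 0 of all genes (0% of those tested), and the smallest adjusted p of any gene was 0.241. DESeq2's Wald test gave 33 genes at that adjusted threshold and limma-voom with sample quality weights gave 1, and no member was among them. The estimate was above zero for 27 members and below zero for 11, against 52.6% of all genes above zero. With the mitochondrial share as a further term 18 members were above zero against 54.5% of all genes, without ctrl 1 and ctrl 2 the number was 19 against 49.7%, and with each mouse left out in turn it ran from 21 to 29. Log2 fold changes of the members ran from -0.20 for Dusp4 to 0.34 for Junb, with a median of 0.062 against 0.0093 over all genes. No member had groups that did not overlap, and 1 of all genes did (0.00571%). With the group as the only term 0 members passed the unadjusted threshold and 3.61% of all genes did. Without ctrl 1 and ctrl 2, the only mice with a mitochondrial share over 4%, Rgs2 alone passed among the members, beside 8.21% of all genes. Leaving out ctrl 5 gave 5 members and 13.5% of all genes, and leaving out ctrl 7 gave 1 member and 9.17%.

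Markers of other cell types also differed between stim and ctrl at an unadjusted p under 0.05 in edgeR, which 11.5% of all genes passed, and none of them at an adjusted p under 0.05. All 8 oligodendrocyte markers were lower in stim, with a median log2 fold change of -0.69 (Mobp, Mbp, Mal, Mog and Cldn11 were among them), and summed levels of 3195 to 19639 CPM in ctrl and 2337 to 5799 in stim. This difference was present in libraries 12 to 23, where the 8 log2 fold changes ran from -1.49 to -1.03 and all had an unadjusted p under 0.05, while in libraries 1 to 11 they ran from -0.20 to 0.19 with 5 above zero and 0 passed. It rested on ctrl 9 and ctrl 11, whose log2 summed levels of 14.26 and 13.82 stood apart from 12.61 or less in every other mouse. Without both, 0 of the 8 markers passed and their median log2 fold change was -0.12. Rgs2 and Nptx2 were still the 2 members of 38 that passed, beside 7.73% of all genes. With the summed level of the markers as a further term in all mice, Rgs2 and Nptx2 no longer passed the unadjusted threshold and Homer1, with a lower estimate in stim, did, beside 7.85% of all genes. Of 7 inhibitory neuron markers, Slc32a1, the vesicular GABA transporter (log2 fold change 0.31, p = 0.00513, adjusted p = 0.329 in edgeR), and Sst, the peptide somatostatin (0.24, p = 0.042, adjusted p = 0.416), were higher in stim. Estimates were above zero for 6 of the 7, and Pvalb was below zero (-0.26, p = 0.232, adjusted p = 0.644 in edgeR). Pvalb was at 0.25 in libraries 1 to 11 and at -0.69 in 12 to 23 (p = 0.394 and 0.0149 in edgeR). Of 6 excitatory neuron markers, 4 had estimates above zero, and Slc17a7, a vesicular glutamate transporter, was higher (0.16, p = 0.0177, adjusted p = 0.363). Of the 3 choroid plexus markers that could be tested, Ttr, which encodes transthyretin, was lower (-1.88, p = 0.00165, adjusted p = 0.313), from 2.07 to 127 CPM in ctrl and 1.41 to 13.8 in stim. No marker of astrocytes, microglia, endothelial cells or striatal projection neurons passed. The part of these cell types in the values of Rgs2 and Nptx2 was not tested beyond the fits with and without the oligodendrocyte markers and their highest mice.

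**Figure D1:**
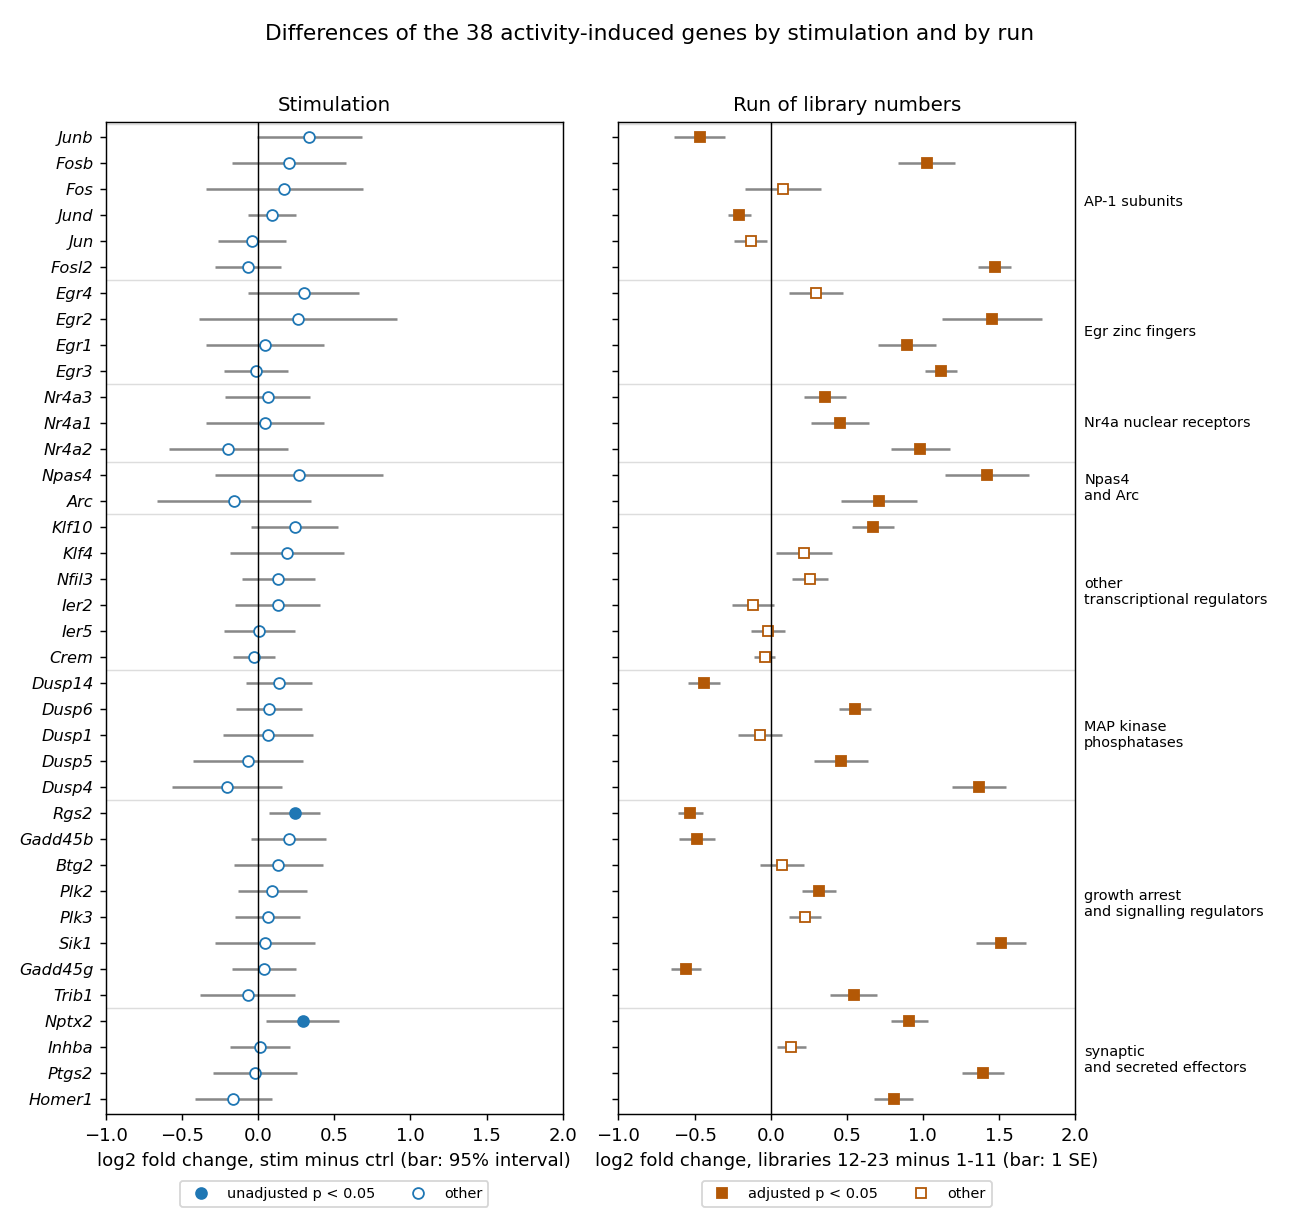
The 38 members by family. Left, log2 fold change of stim (10 mice) against ctrl (12 mice) with its 95% interval; filled circles mark an unadjusted p under 0.05. Right, log2 fold change of libraries 12 to 23 (12 mice) against 1 to 11 (10 mice) with bars of 1 SE; filled squares mark an adjusted p under 0.05. On the left only Rgs2 and Nptx2 are filled and all 38 values lie between -0.20 and 0.34, while on the right 26 squares are filled and values reach 1.51.

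The 6 AP-1 subunits, basic leucine zipper proteins that bind DNA as Fos and Jun dimers, gave no difference at an unadjusted p under 0.05. Fos (chr12:85473890-85477273), the most widely used marker of recently active neurons, was at 10.3 CPM in the lowest ctrl mouse, 39.6 at the median and 60.7 in the highest, and at 15.3, 41.6 and 55.9 CPM in stim. The ctrl range thus covered the stim range at both ends. The fold change of Fos was 1.13 with a 95% interval of 0.789 to 1.61 (log2 0.17 ± 0.25 SE, p = 0.499, adjusted p = 0.821 in edgeR), and an exact permutation of the group labels within each run gave a two-sided p of 0.432 over 194040 arrangements. An increase of Fos of more than 1.61-fold in bulk RNA thus lay outside that interval. By in situ hybridization at the same time after the final stimulation, the paper reports higher shares of c-fos-positive glutamatergic and GABAergic cells in the ACC of stimulated mice. The share of positive cells and the level in bulk tissue are different measures. Junb (chr8:84974484-84978718), which restrains Jun activity in several tissues, ran from 36.6 through a median of 56.1 to 125 CPM in ctrl and from 39.2 through 85.3 to 102 CPM in stim. Its fold change of 1.26 (interval 0.992 to 1.6) was the largest of all members and missed the unadjusted threshold (p = 0.0573, adjusted p = 0.449 in edgeR; exact permutation p = 0.0736). A stretch of 7.52% of the exonic bases of Junb lies opposite Prdx2, and since no strand setting is stated for the counting, reads of such overlaps cannot be told apart. Fosb, which also gives rise to the stable splice form ΔFosB that gene counts do not separate, had medians of 3.39 CPM in ctrl and 3.56 in stim (log2 fold change 0.20, p = 0.276, adjusted p = 0.680 in edgeR). Jund had a log2 fold change of 0.088, and 52.6% of its exonic bases lie opposite Gm11175. Jun (-0.042) and Fosl2 (-0.068) had estimates just below zero.

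The 4 Egr zinc finger factors, which link synaptic input to late-response genes, also gave no call. Egr1 is used as widely as Fos as a marker of plasticity. It ranged from 159 to 729 CPM around a median of 395 in ctrl and from 248 to 757 CPM around 343 in stim, so that the groups overlapped over most of their range. Its fold change was 1.03 (interval 0.789 to 1.35, p = 0.814, adjusted p = 0.947 in edgeR). Egr2 and Egr4 had estimates of 0.26 and 0.30 on the log2 scale with standard errors of 0.32 and 0.18, and Egr3 was at -0.016 ± 0.10. Per kilobase of exon, Egr1 was the second most abundant of all members at a mean of 90.3 CPM per kb over the 22 mice, after Arc at 121, and Egr2 was at 3.88.

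The Nr4a family are orphan nuclear receptors induced by calcium and cAMP. Nr4a1 (chr15:101254269-101274795) had 49.0, 143 and 168 CPM as its lowest, median and highest value in ctrl and 77.9, 115 and 189 CPM in stim. The stim median was the lower one, while the fit, which compares mice within a run, gave a fold change of 1.03 (interval 0.789 to 1.35, p = 0.812, adjusted p = 0.946 in edgeR). Nr4a2 (log2 fold change -0.20 ± 0.19) and Nr4a3 (0.061 ± 0.14) did not pass the threshold either.

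Npas4 and Arc are the members most specific to neuronal activity: Npas4 is induced by calcium entry and hardly by growth factors, and Arc encodes a capsid-forming protein that removes AMPA receptors from synapses. Npas4 (chr19:4984355-4990316) was at 1.62, 10.2 and 26.2 CPM (lowest, median, highest) in ctrl and at 5.09, 10.3 and 28.1 CPM in stim. The medians were almost equal, and the fitted fold change was 1.20 (interval 0.821 to 1.77, p = 0.327, adjusted p = 0.716 in edgeR). Arc (chr15:74669083-74672570) was at 89.2, 339 and 789 CPM in ctrl and 135, 330 and 581 CPM in stim, with a fold change of 0.896 (interval 0.630 to 1.27, p = 0.525, adjusted p = 0.833 in edgeR).

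**Figure D2:**
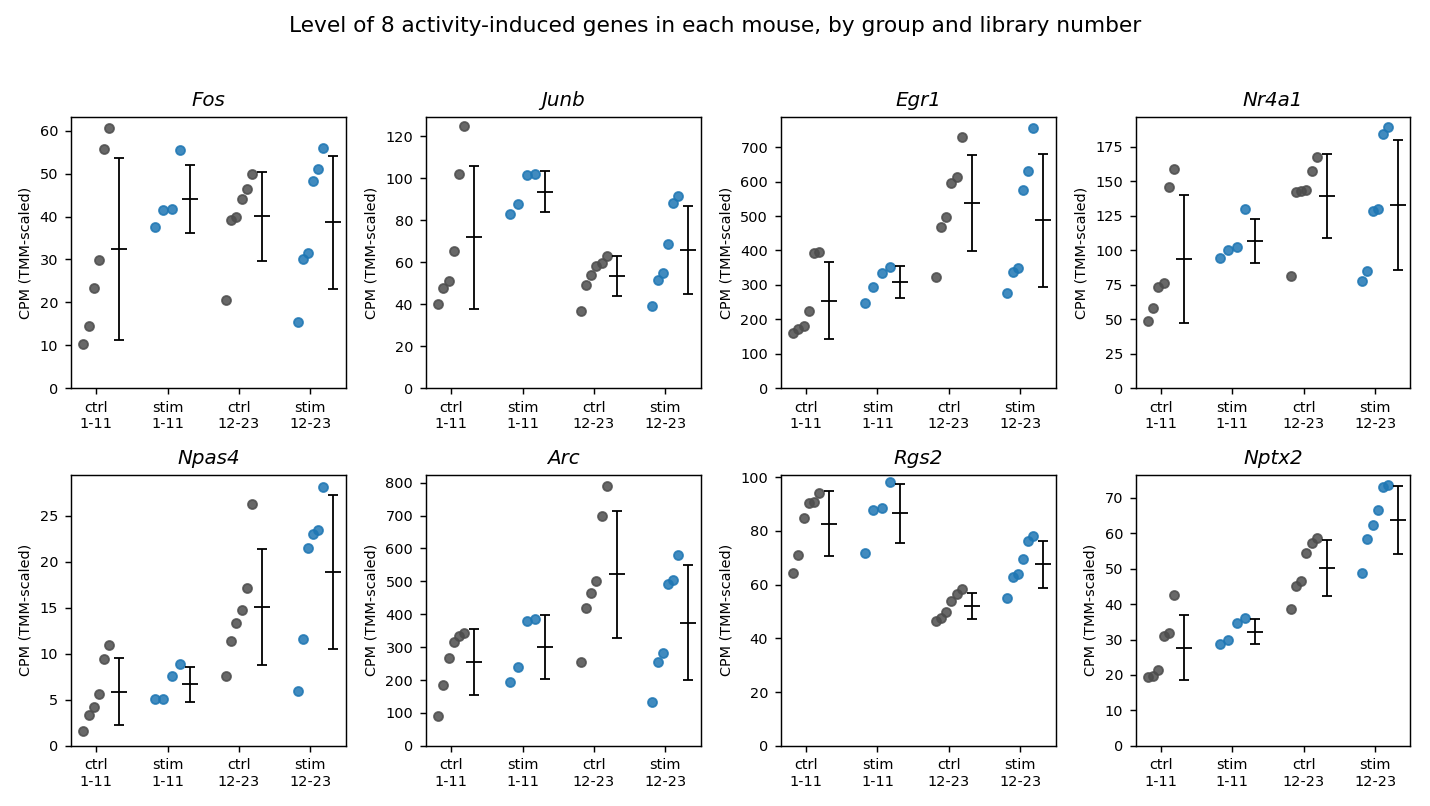
Level of 8 members in each mouse, in CPM on a linear axis from 0, for ctrl (grey) and stim (blue) of libraries 1 to 11 and 12 to 23; each point is 1 mouse, and the bar beside the points is the mean with 1 SD. Stim and ctrl points overlap in every panel, Npas4, Egr1, Arc and Nptx2 sit higher in libraries 12 to 23, and Rgs2 and Junb sit lower there.

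Among the 6 other transcriptional regulators, 5 had estimates above zero and none passed the unadjusted threshold. Klf10, a zinc finger factor induced by TGF-beta, had medians of 70.4 CPM in ctrl and 73.8 in stim and a log2 fold change of 0.24 (p = 0.0951, adjusted p = 0.503 in edgeR). Klf4, a factor of growth arrest and pluripotency, was at a low mean level of 1.05 CPM per kb, above only Fosb at 0.605, and had an estimate of 0.19. Crem, whose internal promoter yields the repressor ICER that gene counts do not separate, was the steadiest member, from 28.6 to 38.7 CPM in ctrl and 26.5 to 39.1 in stim, with a fold change of 0.981 (interval 0.889 to 1.08). Ier2 and Nfil3 both had estimates of 0.13, and Ier5 was at 0.0053.

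The 5 MAP kinase phosphatases switch off the kinases that induce them. Dusp1, which dephosphorylates JNK and p38, had medians of 78.5 CPM in ctrl and 82.9 in stim and a log2 fold change of 0.063 (95% interval -0.23 to 0.36). Dusp6, which is selective for ERK, had a log2 fold change of 0.070 (-0.15 to 0.29), Dusp14 of 0.14 (-0.079 to 0.35) and Dusp5 of -0.068 (-0.43 to 0.30). Dusp4 had the lowest estimate of all members, a log2 fold change of -0.20 (-0.56 to 0.16, p = 0.255, adjusted p = 0.663 in edgeR), with medians of 5.85 CPM in ctrl and 5.43 in stim. Of the exonic bases of Dusp5, 22.1% lie opposite AC137853.2.

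The 8 growth arrest and signalling regulators contained the member with the lowest p. Rgs2 (chr1:143999338-144004161), a GTPase-activating protein that ends signalling by Gq-coupled receptors, ran from 46.3 through a median of 61.2 to 94.1 CPM in ctrl and from 55.0 through 74.0 to 98.3 CPM in stim. In libraries 12 to 23, 5 of the 6 stim mice lay above all 6 ctrl mice, and in libraries 1 to 11 the groups overlapped more. The log2 fold change was 0.067 ± 0.11 (p = 0.563 in edgeR) in libraries 1 to 11 and 0.38 ± 0.10 (p = 0.00128) in 12 to 23, and the difference between the runs had p = 0.0566 (adjusted p = 0.627). Over both runs the fold change was 1.18 (interval 1.05 to 1.33, p = 0.00717, adjusted p = 0.333 in edgeR; exact permutation p = 0.0132). Gadd45b, a stress protein linked to DNA demethylation, was next with a log2 fold change of 0.20 (p = 0.105, adjusted p = 0.520 in edgeR). Gadd45g, Btg2, Plk2, Plk3, Sik1 and Trib1 had estimates between -0.068 and 0.13. Plk2, a kinase of synaptic downscaling, was the most abundant of this family per kilobase at 70.5 CPM per kb.

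Of the 4 synaptic and secreted effectors, Nptx2 (chr5:144545902-144557478) passed the unadjusted threshold. Nptx2 encodes a secreted pentraxin that clusters AMPA receptors on interneurons. It was at 19.4, 40.7 and 58.5 CPM (lowest, median, highest) in ctrl and at 28.6, 53.5 and 73.8 CPM in stim, and 4 stim mice, all of libraries 12 to 23, lay above the highest ctrl mouse. The log2 fold change was 0.29 (95% interval 0.050 to 0.53, p = 0.020, adjusted p = 0.363 in edgeR; exact permutation p = 0.0243). Homer1, the postsynaptic scaffold whose short form Homer1a is induced by activity but is not separated in gene counts, had an estimate of -0.16 ± 0.12. Ptgs2, the inducible cyclooxygenase, was at -0.020 and Inhba, a subunit of activin, at 0.013.

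Genes upstream and downstream of the members gave no adjusted call either, and 6 of them passed the unadjusted threshold that 11.5% of all genes passed. Of 16 other early genes, Cebpb (log2 fold change 0.25, p = 0.00448, adjusted p = 0.329 in edgeR) and Ier3 (0.21, p = 0.0274, adjusted p = 0.385) were higher at the unadjusted threshold and none was lower. Of 12 late-response genes, Scg2, a granin of dense core vesicles, had an estimate of 0.16 (p = 0.0375, adjusted p = 0.412) and Pcsk1, a prohormone convertase, one of -0.25 (p = 0.0149, adjusted p = 0.354). Of 23 genes that carry the signal from synapse to nucleus, Mapk3, which encodes ERK1, had an estimate of 0.21 (p = 0.0146, adjusted p = 0.353) and Creb1 one of -0.18 (p = 0.0436, adjusted p = 0.419).

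Members differed between the runs of library numbers about as often as all genes. At an adjusted p under 0.05, 26 of 38 members differed between libraries 12 to 23 and 1 to 11, where 68.1% of all genes did, and 20 of the 38 were higher in libraries 12 to 23, where 33.7% of all genes were. The median log2 difference was 0.34 for the members and -0.030 over all genes. Sik1, a kinase that inhibits the CREB coactivators, had the largest difference: 3.86 to 9.08 CPM in libraries 1 to 11 and 11.5 to 25.6 CPM in 12 to 23, a fold of 2.86 without overlap. Fosl2, Egr3 and Ptgs2 did not overlap either, with folds of 2.77, 2.17 and 2.63. These 4 of 38 compare with 26.1% of all genes that did not overlap between the runs. Egr2 (2.74), Npas4 (2.68), Dusp4 (2.58) and Fosb (2.03) followed with overlapping ranges. The 6 members lower in libraries 12 to 23 were Gadd45g (fold 0.680), Rgs2 (0.693), Gadd45b (0.717), Junb (0.724), Dusp14 (0.737) and Jund (0.866). Fos was not among those called, with 10.3 to 60.7 CPM in libraries 1 to 11 and 15.3 to 55.9 in 12 to 23 (fold 1.06, adjusted p = 0.784 in edgeR). The mitochondrial share and several neuron markers, in both directions, also differed between the runs as given above, and their part in these differences was not tested.

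Within libraries 1 to 11, 4 members passed an unadjusted p under 0.05, where 6.09% of all genes did. Klf4 (log2 fold change 0.54), Plk3 (0.34) and Sik1 (0.57) were higher in stim and Homer1 (-0.45) was lower. Estimates were above zero for 30 of 38 members there with a median of 0.20, against 47.7% of all genes and a median of -0.0092. Within libraries 12 to 23, 4 members passed, where 13.6% of all genes did: Rgs2 (0.38) and Nptx2 (0.35) were higher and Fosl2 (-0.29) and Dusp4 (-0.51) were lower. Here 23 of 38 estimates were above zero with a median of 0.079, against 56.5% and 0.034 for all genes. In both runs 15 members had a higher estimate in stim, no member had a lower one in both, 15 were higher in libraries 1 to 11 and lower in 12 to 23, and 8 were the reverse. These sign counts were not taken over all genes. The members varied together between mice, as given below, so their signs are not independent.

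Fos itself was one of the 15 that turned sign, with log2 fold changes of 0.44 ± 0.37 (p = 0.247 in edgeR) and -0.052 ± 0.34 (p = 0.880). The 4 stim mice of libraries 1 to 11 lay between 37.5 and 55.5 CPM, inside the range of the 6 ctrl mice from 10.3 to 60.7 CPM, of which 4 were below all stim mice. The difference between the runs was tested as an interaction. It had an unadjusted p under 0.05 for 7 members, where 8.01% of all genes passed, and none passed after adjustment, with a smallest adjusted p of 0.518 over all genes. The stim effect was lower in libraries 12 to 23 for Sik1 by 0.93 on the log2 scale (p = 0.0022 in edgeR), and likewise for Dusp4, Nr4a3, Plk3 and Fosl2, and it was higher there for Homer1 and Inhba.

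**Figure D3:**
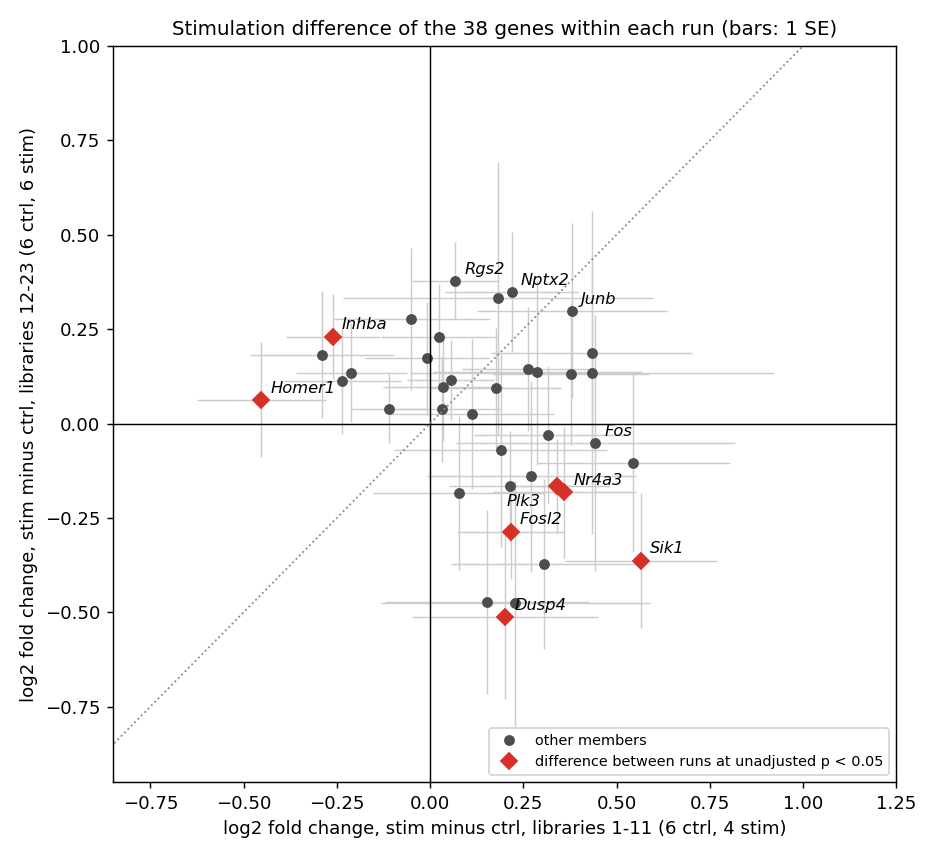
Log2 fold change of stim against ctrl in libraries 1 to 11 (horizontal) and 12 to 23 (vertical) for the 38 members, with bars of 1 SE; the dotted line marks equal values and red diamonds the 7 members whose values differ between runs at an unadjusted p under 0.05. Of the 38 points, 15 lie in the upper right and none in the lower left, and Sik1 lies farthest to the right. The same counts were not taken over all genes.

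Members varied together between mice. The variation was taken as log2 CPM minus the mean of the mouse's own run and group, so that mean differences by stimulation or run do not enter it. All 37 other members correlated positively with Fos over the 22 mice, with a median Pearson r of 0.60 against 0.0049 over all genes. The 7 members with r above 0.8 were Nr4a1, Junb, Dusp1, Egr2, Ier2, Arc and Npas4, and they were the 7 genes of all 17523 with r above 0.8. Of the 10 genes with the highest r, 9 were members, and of the 20 highest, 14. Over all 703 pairs of members the median r was 0.49, and 668 pairs were positive.

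For Nr4a1, r with Fos was 0.92 (permutation p = 1e-05, adjusted p = 0.0584) and Spearman's rho was 0.90 (permutation p = 1e-05, adjusted p = 0.0876); this p is the smallest that 100000 permutations within run and group can give, and the adjustment ran over all 17523 genes. After leaving out the 2 mice farthest from the median of Fos, ctrl 6 and stim 8, r was 0.90, and it was 0.97 within libraries 1 to 11 and 0.85 within 12 to 23. Junb had r = 0.90 and rho = 0.88 (permutation p = 3e-05 and 5e-05, adjusted p = 0.105 and 0.146). Without the same 2 mice r was 0.91, and it was 0.92 and 0.87 within the runs. Dusp1 had r = 0.88 and rho = 0.93 (permutation p = 5e-05 and 1e-05, adjusted p = 0.146 and 0.0876), with 0.93 after the 2 mice were left out. Egr2 (r = 0.87), Ier2 (0.85), Arc (0.83) and Npas4 (0.83) kept r of 0.83, 0.83, 0.70 and 0.87 without those mice. At an adjusted p under 0.05 the count was 0 of 37 members and 0% of all genes for both measures. With 2000000 permutations, added after the data were seen, 2 members passed, Nr4a1 and Ier2, both with an adjusted p of 0.0482, and they were the only genes of all to pass (0.0114%).

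By family, the Npas4 and Arc pair had a median r with Fos of 0.83, the Egr factors 0.72, the Nr4a receptors 0.71, the phosphatases 0.64, the growth arrest and signalling regulators 0.61, the other AP-1 subunits 0.54 and the other transcriptional regulators 0.49. The synaptic and secreted effectors were lowest with 0.22 and a highest r of 0.40 for Nptx2. The lowest single values were those of Klf4 (0.14), Inhba (0.15), Jund (0.17) and Rgs2 (0.18), so that the member with the lowest p between stim and ctrl was among those that followed Fos least. Within AP-1, Junb (0.90) and Jun (0.26) lay far apart, and values of most families overlapped widely, from 0.17 to 0.90 in AP-1 and from 0.24 to 0.88 among the phosphatases. No difference between families was tested.

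The mouse at the extreme of Fos within a run and group was in some blocks also at the extreme of many other members. Among the 6 ctrl mice of libraries 1 to 11, ctrl 5 had the highest Fos and also the highest level of 26 of the 37 other members, against 14.6% of all genes, and ctrl 6 had the lowest Fos and the lowest level of 10, against 16% of all genes. Among the 4 stim mice of the same run, stim 2 was highest for Fos and for 20 others (22.3% of all genes), and stim 1 lowest for Fos and for 18 (27.3%). Among the 6 ctrl mice of libraries 12 to 23, ctrl 12 was lowest for Fos and for 24 others (12.7%), and ctrl 9 highest for Fos and for 8 (17%). Among the 6 stim mice there, stim 9 was highest for Fos and for 6 others (19.2%), and stim 8 lowest for Fos and for 10 (13.5%). The shares of ctrl 9 and stim 9 among the members were thus near those over all genes. Arc was at 344 CPM in ctrl 5 and 89.2 in ctrl 6, and Egr2 at 14.1 and 1.60.

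**Figure D4:**
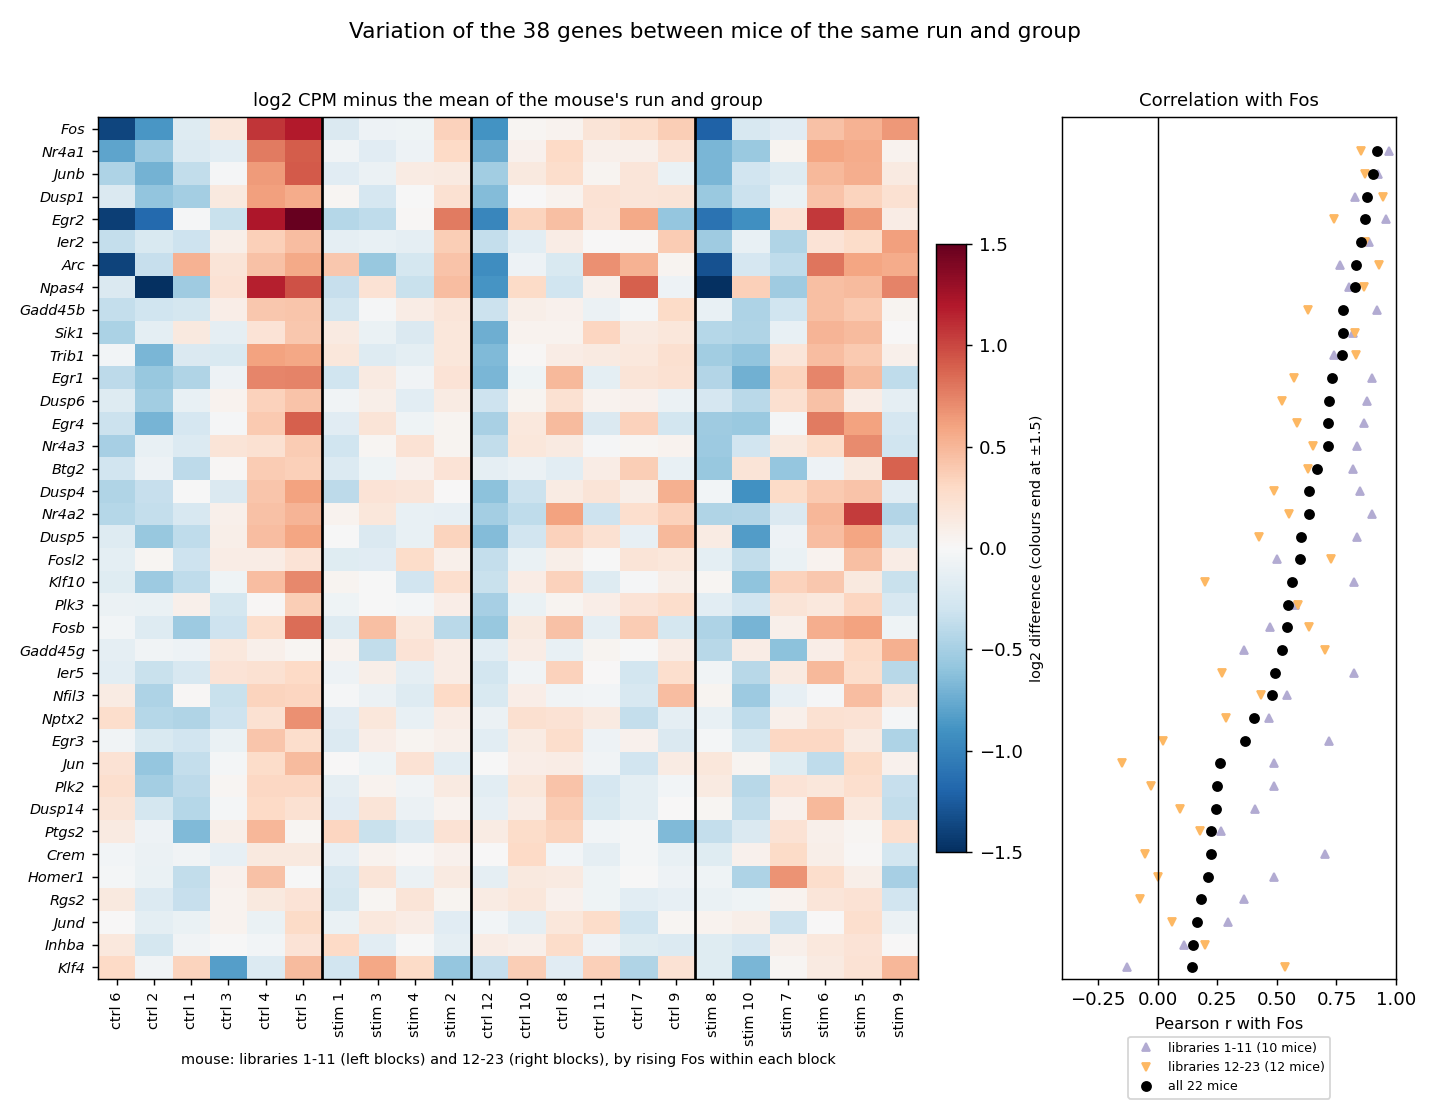
Left, log2 CPM of each member minus the mean of the mouse's run and group, with mice ordered by Fos within each of the 4 blocks and genes ordered by r with Fos. Right, Pearson r with Fos over all 22 mice (black) and within each run. Rows near the top turn from blue to red across each block as Fos does; the black points run from 0.92 for Nr4a1 to 0.14 for Klf4.

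The correlation held in both runs and in both groups. The median r was 0.77 over the 10 mice of libraries 1 to 11 with 36 of 37 members positive, and 0.55 over the 12 mice of libraries 12 to 23 with 33 positive. It was 0.73 in the 12 ctrl mice and 0.49 in the 10 stim mice; the difference between groups was not tested. Without ctrl 6 and stim 8, all 37 were positive with a median of 0.60. Of 10 technical measures and marker sums, none correlated with Fos at a permutation p under 0.05. The strongest was the mitochondrial share (r = -0.32, permutation p = 0.347, adjusted p = 0.773; rho = -0.33, permutation p = 0.197, adjusted p = 0.863), and its r was -0.74 without ctrl 6 and stim 8. Without those 2 mice r also moved for the summed markers of astrocytes (-0.12 to -0.49), endothelial cells (-0.23 to -0.48), microglia (-0.13 to -0.43) and inhibitory neurons (0.16 to 0.48), and these values were not tested. For microglia r was -0.64 within libraries 1 to 11 and 0.40 within 12 to 23. With the mitochondrial share taken out of every gene, a further analysis chosen after the data were seen, 35 of 37 members remained positive with a median partial r of 0.55, and 7 passed an adjusted permutation p under 0.05, as did 11 of all 17523 genes (0.0628%).

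The 10 non-members with the highest r with Fos over the 22 mice were Midn (0.79), Rad9a (0.77), Arl4d (0.76), Sertad1 (0.75), Chfr (0.74), 9630002D21Rik (0.71), C130013H08Rik (0.70), Proser1 (0.69), E330009J07Rik (0.68) and Uhrf1bp1 (0.68). They are named as a description, by rank over all genes. Midn, which encodes midnolin, ranked below the 7 members above 0.8 and above Gadd45b (0.78).

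Members also varied more between mice than most genes. The SD of log2 CPM within run and group had a median of 0.34 for the members and 0.25 over all genes, and 0.20 over the 12480 genes with a mean level at least that of the least abundant member. Of the 38 members, 32 lay above the median of all genes. The top 10% held 4 of the 38, near the share of all genes that this cut defines: Egr2 (0.89), Npas4 (0.78), Fos (0.70) and Arc (0.69). Crem (0.15), Jund (0.18), Inhba (0.18) and Rgs2 (0.19) varied least.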

How the data were processed

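Bulk RNA-seq counts per gene were deposited by the authors as a table of 37786 genes in 22 mice: reads were trimmed with cutadapt 1.10, aligned to mm10 with STAR 2.5.3a and counted with htseq-count 0.6.1p1 on Ensembl annotation, with no strand setting stated. The authors also deposited a signal of counts divided by DESeq2 size factors, and the log2 fold changes and p-values of their own comparison; none of these was used. GENCODE M21 on GRCm38 matched 37772 gene identifiers and supplied positions and exonic lengths.

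Counts were tested with edgeR 4.0.16 (quasi-likelihood, TMM) in R 4.3.3, with group and run of library numbers (1 to 11, 12 to 23) as terms, for the 17524 genes that reached 10 counts in 10 or more mice, and p-values were adjusted by Benjamini-Hochberg over all of them. The study's methods used RNA integrity and 2 batches of mice as covariates. The paper places their values per mouse in its supplement, which was not used here, and the labels do not give them. Whether the run is the batch was therefore not checked, and RNA integrity was not modelled. Depth ranged from 23090483 to 43668462 counts, and intervals are at 95%. CPM were scaled by TMM, and log2 CPM used a prior count of 2. Correlations with Fos were permuted 100000 times within run and group and adjusted over all 17523 other genes, in place of the 37 members named in the design. Fits were tested on simulated data.

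The members and gene lists were chosen with earlier results of these data known. Named genes were all members, list genes at an unadjusted p under 0.05 in stim against ctrl (at most 6 per list), and the 10 non-members with the highest r with Fos; full statistics go to members at an unadjusted p under 0.05 there or for the interaction, and to Fos, Egr1, Arc, Npas4 and Nr4a1. One gene that the rule covers is not reported here. Camk2a, Nrgn, Neurod6 and Pvalb were named outside this rule, after their values were seen. Alternatives were DESeq2 1.42.0 (size factors, Wald test), limma-voom 3.58.1 with sample quality weights, other count minimums and covariates, a replicate block, and each mouse left out. Same-numbered ctrl and stim mice deviated from their group means together (mean correlation 0.308, range -0.367 to 0.635 over 10 pairs), but hardly after the run was removed (mean 0.0511, 3 of 10 above 0.1), so that the numbers do not pair the mice.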

Additional observations from a re-analysis of the deposited data

Results flagged for a closer look

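Btg2, an antiproliferative gene of the immediate early response, stood at 49.0 CPM in stim 9, the highest of the 10 stim mice, while the next had 30.5 and the lowest 17.8. The gap was 0.592 of the range, above Dixon's 95% critical value for 10 samples, which chance passes in about 1 of 20 groups. All 38 members were examined this way in stim, over both runs together, and only Btg2 was flagged. That is fewer than 1 of 20. The ctrl group of 12 is too large for this rule.

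The difference of the stim effect between the runs (libraries 12 to 23 minus 1 to 11, log2 scale, edgeR interaction) had an unadjusted p under 0.05 for 7 members, and none of them passed after adjustment over all genes. It was -0.93 for Sik1 (p = 0.0022, adjusted p = 0.545), whose effect was 0.57 in the first run and -0.36 in the second. For Dusp4 it was -0.72 (p = 0.0402, adjusted p = 0.607), for Nr4a3 -0.54 (p = 0.0466, adjusted p = 0.616), for Plk3 -0.51 (p = 0.0124, adjusted p = 0.559) and for Fosl2 -0.50 (p = 0.015, adjusted p = 0.563). It was 0.52 for Homer1 (p = 0.0343, adjusted p = 0.603), with effects of -0.45 and 0.063, and 0.49 for Inhba (p = 0.00802, adjusted p = 0.558), with effects of -0.26 and 0.23.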

How the results depend on the processing

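The number of members at an unadjusted p under 0.05 in stim against ctrl, 2 in the values reported beside 11.5% of all genes, was 0 with the group as the only term (3.61% of all genes), 6 in limma-voom with sample quality weights (Junb, Egr4, Klf10, Gadd45b, Rgs2, Nptx2; 15.9%), 1 with the summed oligodendrocyte markers as a further term (Homer1; 7.85%), and 1 without both mice with a mitochondrial share over 4% (Rgs2; 8.21%), a setting added after the data were seen. With each mouse left out in turn it ran from 1 (without ctrl 7; 9.17%) to 5 (without ctrl 5: Junb, Egr4, Klf10, Rgs2, Nptx2; 13.5%). No member had an adjusted p under 0.05 in any of these fits. Members with an estimate above zero, 27 in the values reported, numbered 18 with the mitochondrial share as a further term and 19 without both mice over 4%. The other early, late and signalling genes at that threshold numbered 6 in the values reported and 0 with the group as the only term. Members correlated with Fos at an adjusted p under 0.05 numbered 0 in the values reported, 2 with 2000000 permutations (2 of all genes) and 7 with the mitochondrial share taken out (11 of all genes).

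Replicate numbers 1 to 10 are shared by the groups; with the replicate block in place of the run, 1 member (Nptx2) and 7.44% of all genes passed the unadjusted threshold, and log2 fold changes turned sign for Gadd45g (-0.13), Ptgs2 (0.25), Ier5 (-0.023), Fosl2 (0.18), Egr3 (0.15), Trib1 (0.0026), Dusp14 (-0.0079), Dusp5 (0.0029) and Dusp4 (0.040). The numbers do not pair the mice, as checked in the methods: 3 of the 10 ctrl mice correlated best with their own number before the run was removed and 0 after.

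None of the members that follow passed the unadjusted threshold in the values reported. With the group as the only term the sign turned for Sik1 (-0.021), Ptgs2 (0.20), Gadd45g (-0.022) and Egr3 (0.15), and in limma-voom with quality weights for Inhba (-0.0096), Dusp5 (0.078), Trib1 (0.022) and Egr3 (0.015). With the mitochondrial share as a further term it turned for Egr1 (-0.12), Sik1 (-0.0077), Dusp1 (-0.041), Dusp6 (-0.013), Plk2 (-0.018), Ier5 (-0.087), Nr4a3 (-0.012), Inhba (-0.017) and Nr4a1 (-0.078). With the oligodendrocyte markers it turned for Egr1 (-0.019), Plk2 (-0.042), Arc (0.026), Inhba (-0.089), Dusp5 (0.039), Fosl2 (0.0060) and Dusp6 (-0.017). Without both mice over 4% mitochondrial share it turned for Inhba (-0.015), Nr4a1 (-0.065), Ier5 (-0.084), Nr4a3 (-0.017), Dusp1 (-0.054), Dusp6 (-0.0029), Sik1 (-0.031) and Egr1 (-0.086). Without ctrl 9 and ctrl 11, the mice highest in oligodendrocyte markers, it turned for Dusp5 (0.045) and Inhba (-0.064), and with at least 10 counts in every mouse for Ier5 (-0.0068).

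With each mouse left out in turn, the log2 fold change ran from -0.0087 to 0.18 for Btg2, -0.0019 to 0.11 for Dusp1, -0.16 to 0.0041 for Dusp5, -0.045 to 0.11 for Egr1, -0.071 to 0.016 for Egr3, -0.037 to 0.088 for Gadd45g, -0.053 to 0.044 for Ier5, -0.033 to 0.041 for Inhba, -0.029 to 0.12 for Nr4a1, -0.023 to 0.12 for Nr4a3, -0.10 to 0.025 for Ptgs2 and -0.032 to 0.099 for Sik1. The cause of these changes was not tested. Fos stayed above zero under every alternative, as did Rgs2 and Nptx2. The lowest count of any member was 46, and libraries 1 to 11 held 4 stim mice.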
